A study of Mus musculus with 6 samples.

Results

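The DEAD-box and DEAH-box RNA helicases are the genes whose symbol is Ddx or Dhx followed by a number and at most 1 letter. The count files hold 54 such symbols, of which 51 (35 Ddx and 16 Dhx genes) among 24421 symbols are described here, and 3 were left out by the rule that defines the set. RNA came from 1 year old mice, 3 of wild type (WT) and 3 with a STIM1 knockout (KO). In each, the Purkinje neuron layer of the cerebellum was microdissected together with its molecular layer. The protein STIM1 is the calcium sensor of the endoplasmic reticulum. The title of the series places the loss of STIM1 in Purkinje neurons, while the labels name no strain, sex, deleted exon or driver of the deletion, and the dissected layers also hold other cells. The series text calls the replicates biological.

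These helicases use ATP to open short RNA duplexes or to strip proteins from RNA. A catalytic motif, Asp-Glu-Ala-Asp or Asp-Glu-Ala-His, spells the names of both groups in the one-letter code of amino acids. Members act at every step of an RNA's life: transcription and microRNA processing, splicing, export through the nuclear pore, ribosome assembly, translation, storage, decay and the sensing of foreign RNA. In neurons, several travel in RNA granules of dendrites.

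Gene counts were shallow: 645994 to 764839 per library, which were 1.16% to 1.23% of the uniquely aligned reads, with 98.8% assigned to no gene in each library. Which strand was counted is not given in the sources used here, so a member's count may hold reads of its own mRNA or of RNA from the other strand. Stim1 had 7, 21 and 3 counts in the WT libraries, against 4, 3 and 2 in KO. Counts of Y-linked genes were found in WT replicate 3 and KO replicate 3 and in no other library. The 10 Purkinje cell markers listed had counts in every library, lowest for Slc1a6 (6 to 14) and highest for Itpr1 (822 to 1273). Pcp2 had 47 to 71 counts and Calb1 182 to 256 per library. The counted strand is open for these markers as well. Markers of other cells were read too: 5 microglial markers summed to 1.58 to 46.5 CPM per library, led by Cx3cr1 with 1 to 23 counts, and 4 endothelial markers to 5.63 to 22.9 CPM, led by Flt1 with 0 to 12 counts.

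Ddx17 and Ddx5 are close relatives that bind the same partners as coregulators of transcription and splicing and as cofactors of the Microprocessor, which cuts microRNA precursors. They are shown here at the codons of the motif that names the family, because short reads can only be assigned to genes that differ in sequence. Each line gives 72 bases of coding sequence, 5′ to 3′, from GENCODE M21 transcripts, with the motif's 12 bases in capitals.
Ddx17: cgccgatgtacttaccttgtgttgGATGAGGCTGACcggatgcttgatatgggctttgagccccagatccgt
Ddx5: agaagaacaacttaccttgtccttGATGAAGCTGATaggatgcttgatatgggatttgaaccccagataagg
These windows differ at 17 of 72 bases. Over their aligned open reading frames the genes were 69.6% identical and the longest run they shared was 21 bases. Reads were single-end and 50 bases long, per the labels, so words of 50 bases stand in for reads. None of the 7683 words of 50 bases in Ddx17 transcripts occurred in the transcripts of a gene elsewhere. Of the words of Ddx5, 13.4% did, most of them in Gm12183, so the level of Ddx5 and its use as a reference for Ddx17 are uncertain to that extent.

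Ddx19a and Ddx19b, relatives that release mRNA from export factors at the nuclear pore, show the opposite case and lie side by side on chromosome 8.
Ddx19a: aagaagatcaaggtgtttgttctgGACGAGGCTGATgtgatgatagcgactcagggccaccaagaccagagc
Ddx19b: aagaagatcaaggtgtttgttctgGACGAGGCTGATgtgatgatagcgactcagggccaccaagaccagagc
These windows are identical, and the reading frames were 93.1% identical with a shared run of 275 bases. Of the words of 50 bases, 28.1% of those in Ddx19a and 12.4% of those in Ddx19b occurred in the transcripts of another gene. Reads from shared words cannot be placed on 1 gene, so both levels are uncertain. The same holds for Ddx18, with 55.9% of its words shared, mostly with Gm16433.

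The family was thinly read, and a few genes held most of its counts. Of the 51 members, 18 passed the filter on low counts and were tested (35.3%, against 32.2% of the 16540 genes with a count). The other 33 had at most 13 counts in any library, and 2 of them, the germ line gene Ddx43 and Dhx35, had 0 in every library, where a count of 0 allows up to 3 counts (3.92 to 4.64 CPM, which are counts per 1000000 counts in genes, here before TMM scaling). Per library the family summed to 795 to 1032 counts. The 5 most counted members, Dhx32, Ddx5, Ddx19a, Ddx42 and Dhx58, held 62.5% of them. Their order per kilobase of exon differed from their order by count: Dhx32 was at 73.7 CPM per kb, Ddx19a at 49.2, Dhx58 at 34.0, Ddx5 at 28.4 and Ddx42 at 27.9. Ddx17 followed far below at 6.22 CPM per kb, close to Dhx57 at 6.31 and Ddx39 at 6.04.

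**Figure D1:**
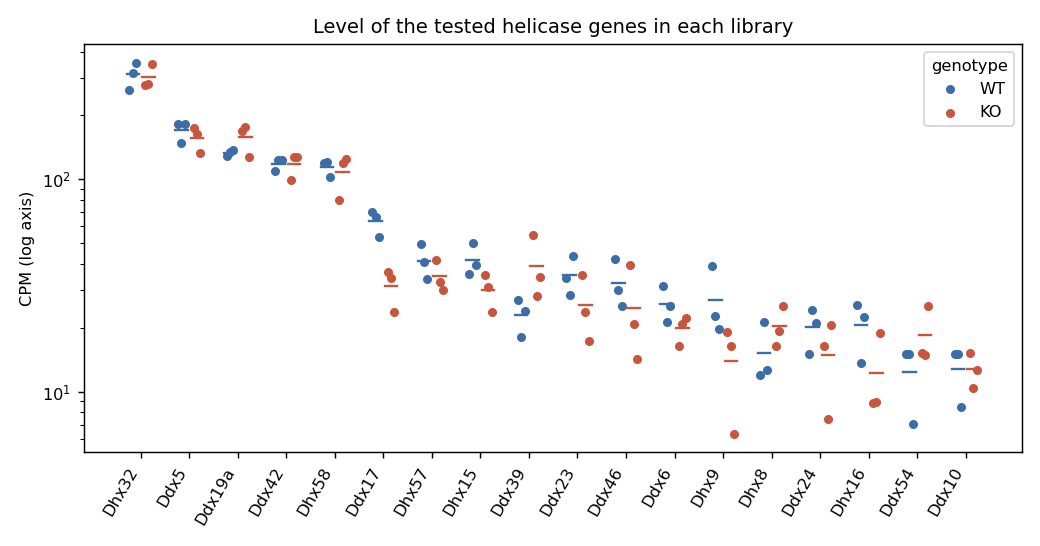
CPM (log axis) of the 18 tested helicase genes in each of the 6 libraries, ordered by mean count; points are libraries (WT blue, KO red) and short bars are group means. Dhx32 lies at 264 to 355 CPM and Ddx10, at the right, at 8.45 to 15.2; for most genes the red and blue points overlap, while those of Ddx17 lie apart.

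The summed level of the family was lower in KO libraries on the scale of counts in genes. Summed over the 51 members the level was 1422, 1397 and 1401 CPM in WT replicates 1 to 3 and 1311, 1323 and 1259 CPM in KO replicates 1 to 3. All 3 KO sums were under all 3 WT sums, with means of 1407 ± 13.3 and 1297 ± 34.2 CPM (SD over libraries, n = 3 per genotype). The KO mean was 0.922 of the WT mean, and 0.942 without Ddx17. Without the 5 most counted members the sums were 617, 552 and 503 CPM in WT and 509, 456 and 399 CPM in KO. There the groups overlapped, with KO replicate 1 above WT replicate 3. Scaled to all uniquely aligned reads the groups met, at 18.09, 16.49 and 17.02 counts per 1000000 reads in WT and 16.51, 15.34 and 13.93 in KO, where KO replicate 1 lay above WT replicate 2. The sum has no test of its own.

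**Figure D2:**
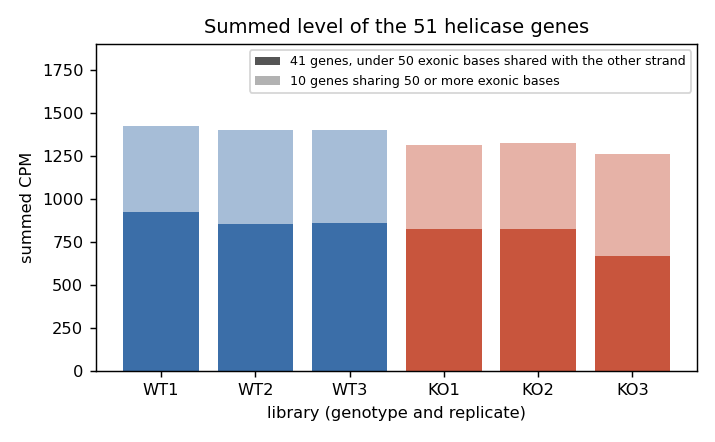
Summed CPM of the 51 helicase genes in each library; the solid part is the 41 genes that share under 50 exonic bases with a gene on the other strand, the pale part the 10 that share more. The solid parts are 855 to 922 CPM in WT and 670 to 824 CPM in KO, while the pale parts overlap (500.5 to 544 and 488 to 589).

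No member passed the comparison of KO with WT. With edgeR's quasi-likelihood test, adjusted over all 5320 tested genes (0% of them called), 0 of 18 members were called higher and 0 lower at an adjusted p under 0.05, and DESeq2 and limma-voom also called 0. At an unadjusted p under 0.05, 2 members were lower in KO, Ddx17 and Dhx9 (3.05% of all tested genes), and 1 was higher, Ddx39 (1.58%), together 3 members against 4.62% of all tested genes. DESeq2 put 1 member at that level, Ddx17. The groups did not overlap for 3 members lower in KO, Ddx17, Dhx9 and Dhx15 (6.13% of all tested genes), and 1 higher, Ddx39 (4.61%), or 4 of 18 against 10.7% in either direction. Fold changes were below 0 for 13 of the 18, with a median log2 fold change of -0.17, while 49.8% of all tested genes were below 0, with a median of 0.00. Tested genes with under 50 exonic bases shared with the other strand had a median of -0.06, and the 13 such members one of -0.40. Of these genes 57.8% were below 0, and of these members 76.9%. These counts describe the genes that passed the filter and are not a test of the family.

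**Figure D3:**
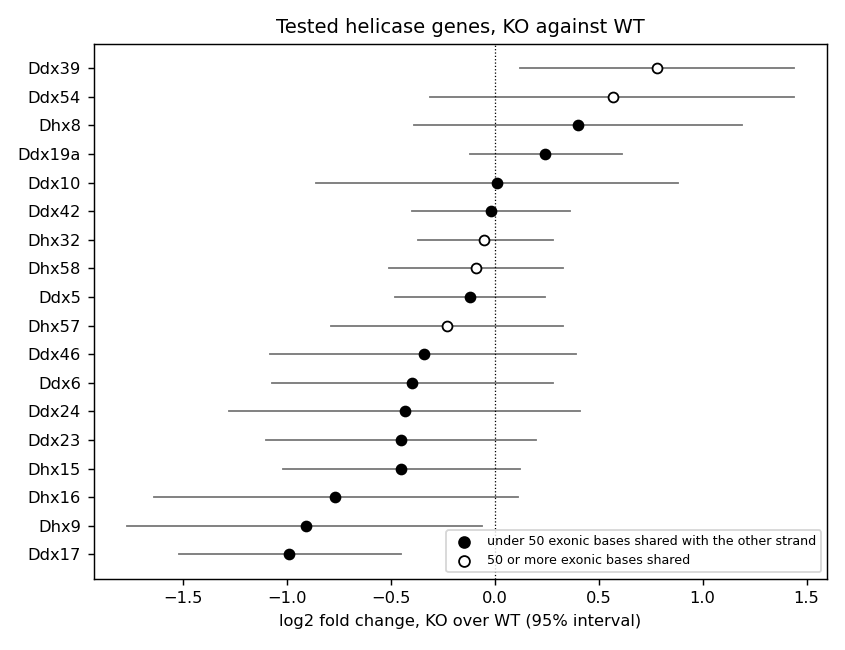
Log2 fold change (KO over WT) of the 18 tested helicase genes with its 95% interval from the edgeR fit; open points share 50 or more exonic bases with a gene on the other strand. Ddx17 is lowest at -0.99 and Ddx39 highest at 0.78; the intervals are not adjusted for the number of genes.

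The mean level of Ddx17 in KO was 0.498 of that in WT, and that of Ddx5 was 0.918, with neither passing the adjusted test. Ddx17 (chromosome 15, 79527736 to 79546741, minus strand, GRCm38) had 47, 44 and 38 counts in WT replicates 1, 2 and 3, against 29, 23 and 15 in the KO replicates. All 3 KO libraries lay below all 3 WT libraries. The level was 63.5 ± 8.86 CPM over WT and 31.6 ± 6.93 CPM over KO libraries (SD over libraries, n = 3 per genotype). The log2 fold change was -0.99 (SE 0.26, 95% interval -1.52 to -0.45), with an edgeR adjusted p of 0.916 and an unadjusted p of 0.00116. It was the lowest unadjusted p but 3 among the tested genes, and Ddx17 was singled out with that known. Counting error alone gives 107.7 to 153.3 for the 129 counts summed over WT and 51.9 to 85.1 for the 67 summed over KO (exact Poisson 95% intervals). Across alternatives the log2 fold change stayed between -1.12 and -0.83, and the adjusted p between 0.297 (edgeR exact test) and 1.0.

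Ddx5 (chromosome 11, 106780355 to 106789185, minus strand) had 122, 98 and 129 counts in the WT libraries, against 137, 110 and 84 in KO. The groups overlapped, at 171 ± 19.7 CPM over WT and 157 ± 21.4 CPM over KO libraries (SD over libraries, n = 3 per genotype). The log2 fold change was -0.12 (SE 0.17, 95% interval -0.48 to 0.24), with an edgeR adjusted p of 0.997. The value of Ddx17 (-0.99) lies outside this interval, but the Ddx17 interval (-1.52 to -0.45) meets it. The sign of the Ddx5 value turned when both libraries with Y-linked counts were left out (0.02).

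Set against Ddx5 in the same library, which removes the library size, Ddx17 was lower in KO. Ddx17 counts were 38.5%, 44.9% and 29.5% of Ddx5 counts in WT replicates 1 to 3 and 21.2%, 20.9% and 17.9% in KO replicates 1 to 3. The ranges did not meet, with the lowest WT library, replicate 3, above the highest KO library, replicate 1. Per kilobase of exon the mean share was 28.4% ± 5.86 in WT and 15.1% ± 1.39 in KO (SD over libraries, n = 3 per genotype). The log2 ratio was 0.90 lower in KO than in WT (KO minus WT -0.90), with a two-sided exact permutation p = 0.1, the smallest that 3 against 3 allows. The pair was chosen with the values of Ddx17 known.

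**Figure D4:**
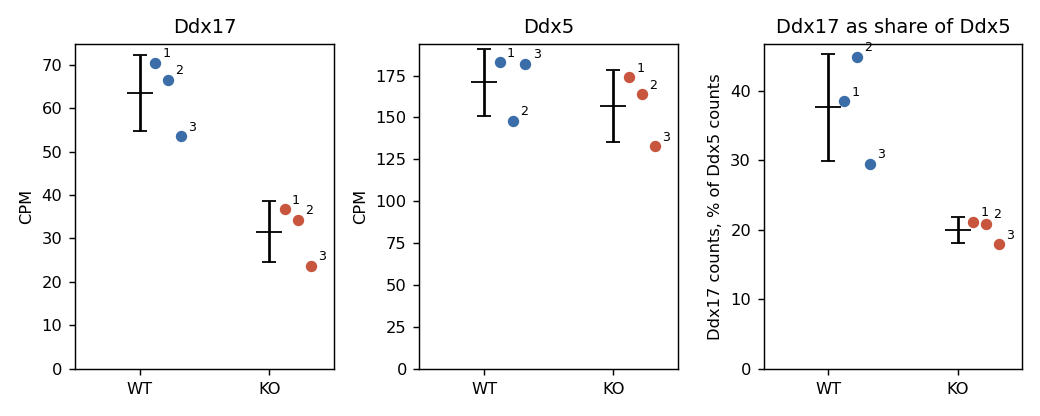
CPM of Ddx17 (left) and Ddx5 (middle), and Ddx17 counts as a percentage of Ddx5 counts (right), by genotype; points are libraries with their replicate number, horizontal lines are means and bars 1 SD. Ddx17 lies at 53.5 to 70.4 CPM in WT and 23.7 to 36.8 CPM in KO, while the Ddx5 points of both genotypes overlap.

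The annotated gene that overlaps exons of Ddx17 on the other strand held few counts. Ddx17 shares 4 exonic bases with Kdelr3, a retrieval receptor of secreted endoplasmic reticulum proteins, which had 4, 5 and 10 counts in the WT libraries, against 14, 3 and 8 in KO. Since the counted strand is not given, these counts do not show how much RNA came from either strand at Ddx17. Ddx5 shares none. Of the cell type markers tested, 0 were called by edgeR's quasi-likelihood test, and the summed levels of 2 of 7 marker lists did not overlap between the genotypes. The summed level of 6 molecular layer interneuron markers was 502 to 554 CPM in WT and 381 to 440 CPM in KO. All 5 tested ones had a log2 fold change below 0, as did 49.8% of all tested genes. None of these markers shares 50 or more exonic bases with the other strand, and 57.8% of tested genes without such sharing were below 0. The summed level of 7 Bergmann glia and astrocyte markers was 677 to 788 CPM in WT and 437 to 624 CPM in KO, with 5 of 7 tested ones below 0. The 10 Purkinje markers summed to 2597 to 3247 and 1983 to 2616 CPM, which overlap, with 7 of 9 tested ones below 0. No marker in these 3 lists was at 0 in any library. Of single tested markers, groups did not overlap for 2 of 5 interneuron ones, Pvalb and Tfap2b, and 2 of 9 Purkinje ones. Among 7 Bergmann glia and astrocyte ones, only S100b had groups that did not overlap. All of these were lower in KO, as were 6.13% of all tested genes. Pvalb had 114, 139 and 148 counts in the WT libraries, against 84, 87 and 75 in KO. With Pvalb left out, the interneuron sums overlapped, as KO replicate 3 lay above WT replicate 2. S100b had 134, 152 and 167 in WT, against 114, 50 and 113 in KO. With S100b left out, the Bergmann glia and astrocyte sums overlapped, as KO replicate 1 lay above WT replicate 3. The sums also overlapped for granule cell markers (189 to 251 CPM in WT, 179 to 253 CPM in KO, 4 of 6 tested ones below 0) and oligodendrocyte markers (105 to 121 against 90.9 to 126 CPM, 2 of 3 below 0). They overlapped likewise for the microglial and endothelial lists, of which no gene was tested. Their part in the Ddx17 result was not tested, and in bulk tissue fewer cells of a type and less RNA per cell cannot be told apart.

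The authors' deposited tables, made from the same libraries, list both genes. In the authors' deposited DESeq table Ddx17 had a fold (KO over WT) of 0.509 with an unadjusted p-value of 0.00102, and Ddx5 a fold of 0.938 with p = 0.697. In the authors' deposited edgeR table the log2 ratio of WT over KO was 0.97 for Ddx17 (p = 0.000313) and 0.10 for Ddx5 (p = 0.626). At an unadjusted p under 0.05, the authors' deposited DESeq table held 1 member lower in KO, Ddx17 (1.11% of genes with a count), and 1 higher, Ddx39 (0.745%). The authors' deposited edgeR table held 2 lower, Ddx17 and Dhx9 (1.68%), and 1 higher, Ddx39 (1.13%).

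Helicases of the spliceosome were the largest tested group, and 5 of 6 had a log2 fold change below 0 (median -0.40), with none passing the test. Dhx15, which takes spent spliceosomes apart, had 36.0, 49.9 and 39.4 CPM in WT and 35.6, 31.3 and 23.7 CPM in KO. The KO libraries lay below the WT libraries, although KO replicate 1 and WT replicate 1 nearly met, and the log2 fold change was -0.45 (SE 0.27, edgeR adjusted p 0.987). Its size was -0.30 without WT replicate 2. Dhx16, which remodels the spliceosome before its first catalytic step, had 25.5, 13.6 and 22.5 CPM in WT and 8.89, 8.94 and 19.0 CPM in KO. Its groups overlapped through KO replicate 3, and its log2 fold change of -0.77 (SE 0.42) became -1.20 without that library. Ddx23 (-0.45) and Ddx46 (-0.34), which act as the spliceosome assembles, were lowest in KO replicate 3, at 17.4 and 14.2 CPM, and both were under an unadjusted p of 0.05 in the edgeR test when KO replicate 1 was left out, as was Dhx16 without WT replicate 2 or KO replicate 3. Ddx42, by contrast, was even across libraries, at 109, 124 and 123 CPM in WT and 99.1, 127 and 127 CPM in KO (-0.02, SE 0.18). Dhx8, which releases the spliced mRNA, lay at 0.40 (SE 0.38). Among the untested ones Dhx38 had at most 11 counts, Dhx40 8, Ddx41 5 and Dhx35 0.

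Of the 4 export helicases 2 were tested, Ddx39 and Ddx19a, both with a log2 fold change above 0 and neither passing the test. Ddx39 (chromosome 8, 83715177 to 83726892, plus strand), an export and splicing factor, had 27.0, 18.1 and 23.9 CPM in WT and 54.6, 28.3 and 34.8 CPM in KO. All KO libraries lay above all WT libraries, and KO replicate 1 stood highest. The log2 fold change was 0.78 (SE 0.31, 95% interval 0.12 to 1.44, edgeR adjusted p 0.987), and 0.45 without KO replicate 1. Ddx39 shares 895 of its 5155 exonic bases with Adgre5, an adhesion receptor gene on the other strand, which had 16, 18 and 11 counts in the WT libraries, against 14, 14 and 11 in KO. The log2 fold change of Adgre5 was -0.24 (SE 0.34), opposite in sign to that of Ddx39. Ddx19a had 129, 135 and 137 CPM in WT and 169, 177 and 127 CPM in KO, so KO replicate 3 lay below the WT libraries and the other two above (0.24, SE 0.18, edgeR adjusted p 0.987). Its size was 0.37 in the highest and 0.15 in the lowest of the comparisons that leave out 1 library. Their relatives were hardly read, with at most 6 counts for Ddx19b and 5 for Ddx39b (5.42 ± 1.04 CPM in WT, 4.17 ± 1.89 in KO, overlapping), the partner of Ddx39 with 80.9% identity of the aligned reading frame.

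The members grouped here under translation, storage and decay included 3 tested ones, all with a log2 fold change below 0 (median -0.40). Dhx9, RNA helicase A, which binds structured RNA and inverted repeats, had 26, 15 and 14 counts in the WT libraries, against 15, 11 and 4 in KO. In CPM these were 39.0, 22.7 and 19.7 against 19.1, 16.4 and 6.33, so the groups were apart by less than the spread within either. The log2 fold change of Dhx9 was -0.91 (SE 0.40, edgeR adjusted p 0.987), and it was -0.57 without WT replicate 1 and -0.60 without KO replicate 3. Ddx6, which holds mRNA silent in P-bodies, had 31.5, 21.2 and 25.4 CPM in WT and 16.5, 20.9 and 22.2 CPM in KO, with overlapping groups (-0.40, SE 0.32). Dhx57 had 49.5, 40.8 and 33.8 CPM in WT and 41.9, 32.8 and 30.1 CPM in KO (-0.23, SE 0.27). It shares 390 of its 6042 exonic bases with genes on the other strand. Untested in this group were Dhx36, which opens G-quadruplexes, with at most 13 counts, Ddx1 with 11, Dhx29, a factor of translation initiation, with 5, and Dhx34, a factor of nonsense-mediated decay, with 3.

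Helicases of ribosome assembly made the largest group by number, 15 genes, and only 3 were tested, with 2 above 0, 1 below and a median of 0.01. Ddx54 had 15.0, 15.1 and 7.04 CPM in WT and 15.2, 14.9 and 25.3 CPM in KO (0.57, SE 0.42), a value set by WT replicate 3 and KO replicate 3, since it was 0.27 without the former and 0.29 without the latter. Ddx54 shares 947 of its 6128 exonic bases with genes on the other strand. Ddx10 lay at 0.01 (SE 0.41) and Ddx24 at -0.43 (SE 0.40), both with overlapping groups. The other 12 had at most 13 counts in a library (Ddx27), with 12 for Ddx50 and Ddx55 and 7 for Ddx47 and Dhx33. Ddx18, Ddx51, Ddx52, Ddx56, Dhx37, Ddx21 and Ddx31 had at most 3 to 5.

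Of the sensors of foreign RNA, 1 was well read. Dhx58, also called LGP2, a relative of RIG-I without its signalling domains, had 80, 80 and 73 counts in the WT libraries, against 63, 80 and 79 in KO. The groups overlapped (-0.09, SE 0.20, 95% interval -0.51 to 0.33), and the sign turned without KO replicate 1 (0.09). RIG-I itself, Ddx58, had at most 4 counts and Ddx60 at most 1. Dhx58 shares 141 exonic bases with Dhx58os on the other strand, which was not analysed here.

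Dhx32, whose function is less clear, was the most counted member, with 264, 318 and 355 CPM in WT and 279, 280 and 348 CPM in KO. Its groups overlapped and its log2 fold change was -0.05 (SE 0.15, 95% interval -0.37 to 0.28). Dhx32 shares 204 exonic bases with Bccip, a gene of genome maintenance on the other strand, which had 48, 62 and 79 counts in the WT libraries, against 64, 70 and 52 in KO. The remaining members were too thinly read to be tested. Dhx30 and Ddx28, of mitochondrial ribosomes, had at most 12 and 5 counts, Ddx11, a DNA helicase, 8, Ddx20, of the SMN complex, 3, and Ddx59 4. Ddx26b, which GENCODE M21 names Ints6l and which is a member here only by its symbol in the count files, had at most 8. Of the germ line genes Ddx25 had at most 5 counts, Ddx4 2 and Ddx43 0.

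KO replicate 3 was the lowest of the 6 libraries for 8 of the 18 tested members, against 17% of all tested genes. It was also 1 of the libraries with Y-linked counts and had the smallest share of reads in genes (1.16%); their part in this was not tested. The 8 were Ddx17, Ddx5, Ddx19a, Ddx23, Ddx46, Dhx9, Dhx15 and Dhx57. Without it the members' median was -0.15, against -0.17 with all libraries. The log2 fold change of Ddx17 was then -0.83, against -0.99, its smallest change among the alternatives. For 7 of 18 members WT replicate 1 was the highest library, against 18.5% of all tested genes.

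The partners of these helicases gave no call either: 0 of the 34 tested genes in 8 lists passed edgeR's quasi-likelihood test. Both Microprocessor subunits were below 0. Dgcr8, its RNA-binding subunit, had 24, 23 and 27 counts in the WT libraries, against 26, 15 and 13 in KO (-0.50, SE 0.28). Once scaled, every KO library was lower, as for 6.13% of all tested genes. Of the other partners tested, groups did not overlap for Ewsr1, lower in KO, and Sarnp, higher in KO. Over all tested genes, 10.7% had such groups in either direction. Drosha, the nuclease, lay at -0.19 (SE 0.31). Dgcr8 shares 825 exonic bases with the other strand, and of the partners named below Lsm14a shares 454, Ewsr1 258, Eif4a2 194 and Upf1 68. The counted strand is not given. Of 8 tested hnRNP-like partners 6 were below 0 (median -0.14), with Ewsr1 at -0.51 (SE 0.22) and Hnrnpm at -0.33 (SE 0.23). Helicases with other names had 4 of 6 above 0 (median 0.06), with Upf1, the helicase of nonsense-mediated decay, at 0.39 (SE 0.18) and the translation initiation helicase Eif4a2 at -0.13 (SE 0.14). All 7 tested cap-binding and eIF4F partners were below 0 (median -0.07), with Eif4g1 at -0.43 (SE 0.32) and Eif4g2 at -0.23 (SE 0.23). All 3 decapping and P-body genes were above 0 (median 0.22), with Dcp2 at 0.52 (SE 0.30) and Lsm14a at 0.22 (SE 0.37). TREX export factors had 3 of 4 above 0 (median 0.04), with Sarnp at 0.34 (SE 0.31) and Nxf1 at -0.31 (SE 0.48). The SMN complex had 2 of 3 above 0 (median 0.01), with Smn1 at -0.09 (SE 0.25) and Gemin8 at 0.11 (SE 0.43), and of the exon junction complex only Rbm8a was tested (0.09, SE 0.44).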

How the data were processed

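Each deposited count file lists whole counts by gene symbol. The submitters' processing notes name TopHat, HTSeq 0.9.1, DESeq, edgeR and the build GRCm38 (mm10). Neither strand setting nor annotation is stated there. Rows that name no gene (98.8% of uniquely aligned reads) entered neither library sizes nor tests. The authors' deposited DESeq table gives mean normalised signal, the ratio or fold of KO over WT and its p-value. Log2 ratios in the authors' deposited edgeR table are WT over KO.

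The main test was edgeR's quasi-likelihood test (version 4.0.16, R 4.3.3) on 6 libraries without covariate. TMM factors were 0.958 to 1.03 and filterByExpr (minimum count 10) kept 5320 genes. Calls need a Benjamini-Hochberg adjusted p under 0.05 over these. CPM use TMM-scaled library sizes. The SE is the one implied by the F statistic. Intervals for counts cover counting error only. Alternatives used DESeq2 1.42.0, limma 3.58.1 (voom), other scalings and filters, a replicate block and fewer libraries. The test was checked on simulated counts.

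Positions, exon lengths, opposite-strand overlaps (at least 50 bases) and sequences come from GENCODE M21 (GRCm38), with 51 of 51 members matched. Reading frames are the longest from ATG to stop. The members, roles and partner lists were chosen with earlier results of these data known. Given by library are Ddx17, Ddx5, tested members with an unadjusted p under 0.05 or groups that do not overlap, the 3 most counted, and per role the highest per kb and the lowest p. Other tested members named were added after their values were seen. Untested members are named with their highest count, and partner lists with their 2 lowest p.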

Additional observations from a re-analysis of the deposited data

How the results depend on the processing

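The count of called members was 0 in all 17 alternatives, and Ddx17 kept its direction in each. The number of members at an unadjusted p under 0.05, 3 with all libraries, was 1 with DESeq2 and 1 with both libraries that hold Y-linked counts left out (Ddx17 in both), and 2 to 4 when single libraries were dropped, for causes that were not tested. With those same 2 libraries left out the log2 fold change of Ddx5 turned to 0.02, Ddx10 to -0.22 and Ddx54 to -0.00. Near-zero values also turned for Ddx10 (-0.04 scaled to uniquely aligned reads, -0.00 with the replicate block, -0.23 to 0.15 leaving out 1 library), Ddx42 (0.00 with no filter, 0.04 among genes with no opposite-strand overlap, -0.09 to 0.09, with 0.02 among them, leaving out 1 library), Dhx32 (-0.16 to 0.05, with 0.01 among them, likewise) and Dhx58 (-0.21 to 0.09 likewise). The members' median ranged from -0.34 to -0.11. The summed family level, KO over WT, was 0.887 when every uniquely aligned read entered the library size; all alternatives for this sum were added with the values seen. The log2 ratio of Ddx17 to Ddx5 was -1.06 to -0.76 leaving out each library; scalings, filters and tests across genes do not enter it.

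With the replicate block, Ddx17 had an edgeR adjusted p of 0.906, 3 members had an unadjusted p under 0.05 and 0 were called, and the ratio to Ddx5 lay at -0.90 (exact sign-flip p = 0.25, the smallest possible). Deviations of equal numbers correlated at 0.143, 0.0795 and 0.122, and the labels name no pairing. Of the 51 members 34 had a mean under 10 counts per library, and the size of change that these counts could show was not measured.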
